A study of Mus musculus with 6 samples.

Results

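Cystatins are the natural inhibitors of the papain-like cysteine proteases, above all the lysosomal cathepsins. The 8 cystatin genes described here were taken by symbol from the 57127 genes in the deposited count table: Cst3, Cst6, Cst8, Cst9, Cst11, Cst12, Cst13 and Cstb. Their transcripts were compared between the epididymis of adult wild-type (WT) mice and that of adult Ocln-/- mice (Ocln-KO), which lack occludin, a transmembrane protein of tight junctions. Both genotypes were recorded as strain C57BL/6, the knockouts came from heterozygous parents, and the deletion is carried by the whole animal and not by the epididymis alone. The organ was taken whole, from the initial segment to the cauda, as 3 libraries per genotype and 6 in all. The study's methods speak both of separate extractions and of pooled RNA, so n counts libraries here, and the p-values measure the spread between libraries, which may be partly technical.

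A cystatin fits as a wedge into the active-site cleft of its protease and blocks it reversibly. Type 1 cystatins, or stefins, such as the product of Cstb, lack a signal peptide and stay inside the cell, whereas type 2 cystatins, such as the product of Cst3, are secreted. In the epididymis a subgroup of type 2 genes, named after the cystatin-related epididymal spermatogenic protein (CRES, the product of Cst8), is known for expression restricted to particular segments, mostly proximal ones, and its proteins enter the luminal fluid through which sperm pass.

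Of the 8 genes, 6 lie together on mouse chromosome 2 in GRCm38 (GENCODE vM21 annotation). From left to right they are Cst11 (chr2:148768609-148771497, minus strand), Cst12 (chr2:148789361-148793546, plus strand), Cst8 (chr2:148798785-148805595, plus strand), Cst13 (chr2:148820081-148830410, plus strand), Cst9 (chr2:148835147-148838738, plus strand) and Cst3 (chr2:148871722-148875692, minus strand). Cst6 lies apart at chr19:5344705-5349574 on the minus strand, and Cstb at chr10:78425669-78427622 on the plus strand. The block of 45 bases below is the stretch in which the coding sequences of the 7 type 2 genes are most alike within 1 coding exon. It is shown because it makes visible both the shared origin of these genes and how far apart they have drifted, which bears on whether reads of one could be counted for another. It lies at chr2:148875186-148875230 in Cst3, chr19:5349128-5349172 in Cst6, chr2:148800138-148800182 in Cst8, chr2:148835352-148835396 in Cst9, chr2:148771209-148771253 in Cst11, chr2:148789517-148789561 in Cst12 and chr2:148823237-148823281 in Cst13, all in coding exons. Each sequence runs 5′ to 3′ on the strand of its gene, and capitals mark the 8 positions at which all 7 genes have the same base.
Cst3: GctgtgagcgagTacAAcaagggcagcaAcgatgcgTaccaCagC
Cst6: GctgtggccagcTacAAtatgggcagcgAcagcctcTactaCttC
Cst8: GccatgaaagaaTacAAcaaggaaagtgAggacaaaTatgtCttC
Cst9: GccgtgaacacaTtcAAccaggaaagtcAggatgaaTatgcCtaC
Cst11: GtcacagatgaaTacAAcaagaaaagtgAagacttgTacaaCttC
Cst12: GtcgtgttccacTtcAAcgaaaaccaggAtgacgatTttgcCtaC
Cst13: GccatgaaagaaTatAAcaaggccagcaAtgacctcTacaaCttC

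Even in this block, Cst13 matched Cst3 at 30 of the 45 bases and Cst12 at only 20. Over the whole aligned coding sequences, identity ran from 38.3% between Cst6 and Cst9 to 56.3% between Cst8 and Cst13. Transcripts of Cst3, Cst8, Cst9, Cst11, Cst12, Cst13 and Cstb shared no stretch of 31 bases with an annotated transcript of any other gene, on either strand. Cst6 shared 29 of its 4074 such stretches, none of them with another cystatin. No exon of the 8 genes overlapped an exon of another gene. The low counts of the cluster genes given below therefore did not coincide with identical copies among the annotated transcripts.

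The libraries held between 30646424 and 38870780 counts, so 1 count was worth between 0.0267 and 0.0314 CPM, the count scaled to library size with TMM factors. Ocln itself fell from 85.9, 78.8 and 91.8 CPM in the WT libraries to 15.1, 15.3 and 14.9 CPM in the Ocln-KO libraries (log2 fold change -2.50 ± 0.09 (SE), adjusted p = 0.000108, edgeR quasi-likelihood test). The sample records name prefrontal cortex in the extraction protocol, although the tissue is given as whole epididymis. Epididymal transcripts were abundant in all 6 libraries, among them Adam7 and Lcn5, whereas the segment markers Lcn9, Rnase10 and Adam28 had at most 20 counts in any library. Ocln-KO replicate 3 stood apart from the others on the first principal component, at 86.3 against 17.7 and 29.1 for the other 2 knockout libraries and -52.8 to -37 for the WT libraries. Results are therefore also given without it.

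Across the 8 cystatins, the transcript level ran from 8043 counts in the highest library of Cst3 down to none. Cst3 and Cstb were well measured, Cst8 had at most 25 counts in any library, and Cst13, Cst6, Cst11, Cst12 and Cst9 were at or near 0. Levels of different genes are comparable only per length, and were divided by the exonic length of each gene. On that scale Cst3 led with 166 CPM per kb in WT and 150 CPM per kb in Ocln-KO, and Cstb followed with 35.8 and 38.1 CPM per kb. The ranges of the single libraries, 131 to 170 CPM per kb for Cst3 and 27.2 to 45.4 CPM per kb for Cstb, did not overlap. Cst8 came next with means of 0.600 and 0.550 CPM per kb, then Cst13 with 0.172 and 0.279 CPM per kb. Below Cstb, the libraries' ranges of neighbouring genes overlapped, and the order of Cst8, Cst13, Cst11 and Cst6 is not resolved. Cst3 supplied between 87.2% and 91.7% of all cystatin counts in each library. That total covers the 8 genes and the 17 further cystatin genes described below. Corrected for length, the share of Cst3 in the level of these genes was between 76.7% and 84.4%.

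**Figure D1:**
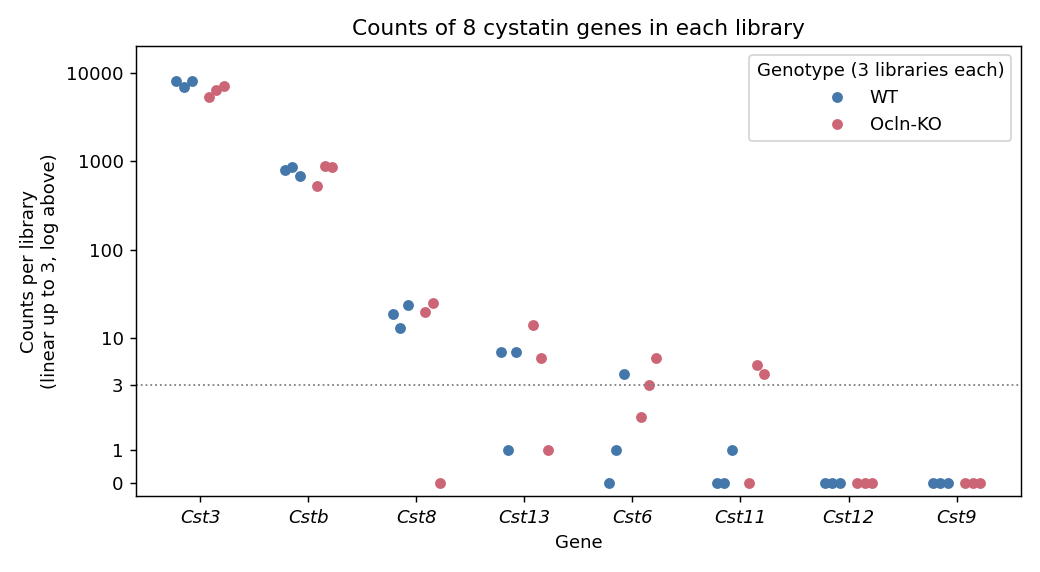
Raw counts of the 8 cystatin genes (x axis) in each of the 6 libraries (y axis, linear up to 3 counts and logarithmic above; the dotted line marks 3 counts), with WT in blue and Ocln-KO in red, replicates 1 to 3 from left to right. Cst3 is at 5315 counts or more and Cstb at 526 or more in every library, Cst8 is at 13 to 25 counts in 5 libraries and at 0 in Ocln-KO replicate 3, and Cst12 and Cst9 are at 0 throughout.

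Only Cst3, Cst8 and Cstb passed the filter on low counts, 3 of the 8 cystatins, and 0 of these 3 differed between the genotypes at a false discovery rate (FDR) under 0.05 in the edgeR quasi-likelihood test. At an unadjusted p under 0.05 the count was also 0, and DESeq2 called 0 of them as well. The background was 8.95% of all 19691 genes fitted: 3.91% were called as higher in the knockout and 5.04% as lower, and 3.19% had a fold change over 2 or under 0.5 besides. None of the 3 had WT and Ocln-KO libraries without overlap, against 36.3% of all genes tested. Their median log2 fold change was -0.13, and that of all genes tested was 0.01. With 3 genes, neither figure sets the cystatins apart from the rest.

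Cst3 encodes cystatin C, the secreted inhibitor made by nearly every tissue and a tight inhibitor of cathepsins B, L and S. Its WT libraries read 215.0, 199.5 and 215.8 CPM, and its knockout libraries 165.7, 198.6 and 206.5 CPM. Ocln-KO replicate 3 lay within the WT range, replicate 2 just under its lower edge and replicate 1 clearly below it. The mean was 210 ± 9.20 CPM for WT against 190 ± 21.7 CPM for the knockout (SD over 3 libraries each). The log2 fold change was -0.14 ± 0.10 (SE), with an adjusted p of 0.410 in the edgeR quasi-likelihood test. The 95% interval of the difference allows the Ocln-KO level to lie between 0.766 and 1.07 times that of WT; a larger fall or rise lies outside that interval. Without Ocln-KO replicate 3 the log2 fold change was -0.21 (adjusted p = 0.274), and without replicate 1 it was -0.05 (adjusted p = 0.783).

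Cstb encodes stefin B, the intracellular inhibitor whose loss in people causes a progressive myoclonic epilepsy. The WT libraries read 21.3, 25.3 and 18.1 CPM, and the knockout libraries 16.4, 27.4 and 25.1 CPM. The lowest and the highest of the 6 values were both knockout libraries. The means were 21.6 ± 3.61 CPM for WT and 23.0 ± 5.80 CPM for the knockout (SD, n = 3), and the log2 fold change was 0.09 ± 0.21 (SE; adjusted p = 0.811, edgeR). The interval ran from 0.763 to 1.49 times the WT level. Without Ocln-KO replicate 3 the log2 fold change was 0.02, and its sign turned when Ocln-KO replicate 2 or WT replicate 3 was left out, at -0.05 and -0.02.

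Ocln-KO replicate 1 was the lowest of the 6 libraries for both Cst3 and Cstb. The same library also had the lowest summed level of the 5 caput markers, at 2813 CPM against 4117 to 16723 CPM in the other 5, and of the 8 initial segment markers, at 6880 CPM against 8271 to 13047 CPM. These sums were carried by few genes, and their members did not all move alike. Lcn5, Lcn6 and Crisp4 of the caput list and Adam7 and Rnase9 of the initial segment list were lowest in that library, whereas Etv4 and Etv5, transcription factor genes of the initial segment, were highest there, at 1.12 and 18.9 CPM. Gpx5, the gene of a secreted glutathione peroxidase, was called as higher in Ocln-KO (log2 fold change 6.12): it had 26.3 to 172 CPM in WT libraries, 256 CPM in Ocln-KO replicate 1, and 7264 and 10039 CPM in replicates 2 and 3, which set the top of the caput sum. In whole tissue, fewer cells of a type and less RNA per cell cannot be told apart, and the part of tissue makeup in the Cst3 and Cstb values was not tested. The level of Cst3 relative to Cstb, per length, was 4.82, 3.75 and 5.67 in WT and 4.81, 3.46 and 3.92 in Ocln-KO. The secreted inhibitor was thus the more abundant transcript in every library, and the ratios of the genotypes overlapped. The tested genes with the profile nearest to that of Cst3 over the 6 libraries were Pcyt1a, Rab3gap1 and Mrpl38, with root mean square differences of 0.0242, 0.0277 and 0.0281 in centred log2 CPM. Those nearest to Cstb were Gm5656, 1110059G10Rik and Bex2, with differences of 0.0587, 0.0727 and 0.0741.

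**Figure D2:**
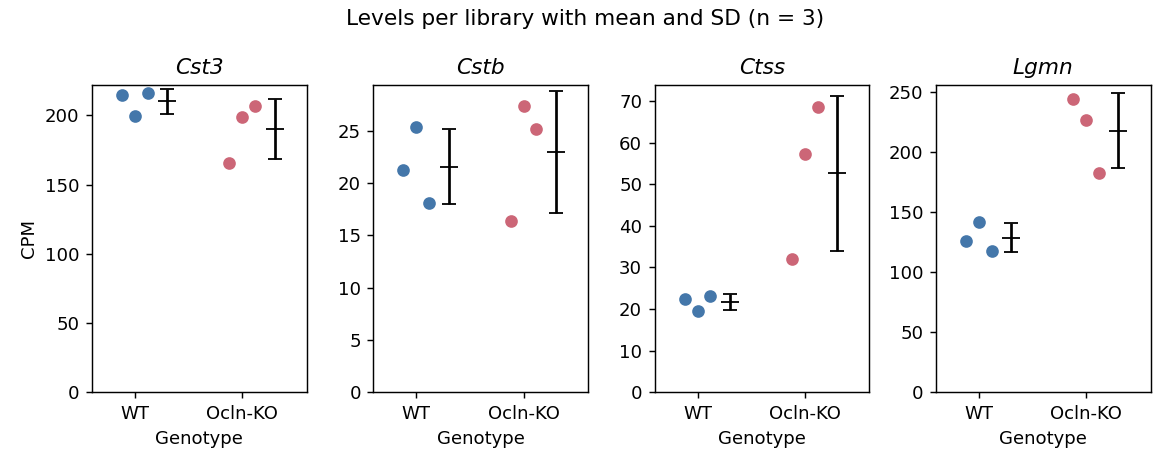
CPM (y axes, from 0) of the cystatin genes Cst3 and Cstb and of the protease genes Ctss and Lgmn in each library (points; WT blue, Ocln-KO red, replicates 1 to 3 from left to right), with the mean and SD of the 3 libraries as black bars. The genotypes overlap for Cst3 and Cstb, whereas every Ocln-KO library lies above every WT library for Ctss and Lgmn.

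Cst8 encodes CRES itself, which is known from the proximal caput epididymidis and from round and elongating spermatids, and which inhibits the proprotein convertase PC2 rather than papain-like enzymes. It had 19, 13 and 24 counts in the WT libraries and 20, 25 and 0 counts in Ocln-KO. Ocln-KO replicates 1 and 2 were within or just above the WT range, and replicate 3 held none of its reads. A count of 0 there allows up to 3 counts, or 0.0888 CPM, against 0.381 CPM in the lowest WT library, a limit that covers counting error alone. The mean level was 0.512 ± 0.133 CPM for WT against 0.469 ± 0.414 CPM for the knockout (SD over 3 libraries each). The fitted log2 fold change was -0.13 ± 0.96 (SE; adjusted p = 0.945, edgeR), and its interval spanned 0.196 to 4.24 times the WT level. Without Ocln-KO replicate 3 the log2 fold change was 0.45 (adjusted p = 0.626). The knockout libraries thus differed among themselves by more than the genotypes did.

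Cst13 encodes cystatin T, named for its expression in the testis, and had 7, 1 and 7 counts in WT and 14, 6 and 1 counts in Ocln-KO. It was too low to be tested. As for Cst8, Ocln-KO replicate 3 had the lowest count among the knockouts, although WT replicate 2 had no more. Cstl1, a cystatin-like gene at the left end of the cluster, likewise known from the testis, had 6, 9 and 1 counts in WT and 25, 11 and 0 counts in Ocln-KO. Added together, a sum chosen after the values were seen, Cst8, Cst13 and Cstl1 had 32, 23 and 32 counts in WT and 59, 42 and 1 counts in Ocln-KO. Ocln-KO replicate 3 was thus nearly empty of all 3, and the other 2 knockout libraries held more than any WT library.

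Transcripts of spermatids and sperm, taken as a sum, were also lowest in Ocln-KO replicate 3 and highest in replicates 1 and 2. The summed level of 8 such genes was 371, 297 and 301 CPM in the WT libraries, then 409 and 413 CPM in Ocln-KO replicates 1 and 2, but 96.7 CPM in replicate 3. The 8 were Prm1, Prm2, Tnp1, Tnp2, Odf1, Acr, Akap4 and Smcp. Of these, 0 passed the test between genotypes (edgeR), against 8.95% of all genes called. All were present in every library, the scarcest being Acr with 10 to 47 counts. Each was lowest in Ocln-KO replicate 3. Prm1, Tnp1, Tnp2 and Smcp lay above their WT ranges in replicates 1 and 2. Odf1 lay within its WT range in both, and Prm2, Acr and Akap4 did so in replicate 1. Of the caput markers, Lcn5, Lcn6 and Gpx5 were highest in Ocln-KO replicate 3, and Crisp4 lay within its WT range there. Low sums in that library were not particular to sperm transcripts. The sum of the distal markers Crisp1, Gpx3 and Hoxa11 was 6196 CPM there, against 12112 to 22656 CPM elsewhere. That of the adipocyte markers Adipoq, Plin1, Lep, Cfd and Fabp4 was 0.592 CPM, against 2.70 to 13.1 CPM. The part of spermatid or sperm RNA in the counts of Cst8, Cst13 and Cstl1 was not tested.

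**Figure D3:**
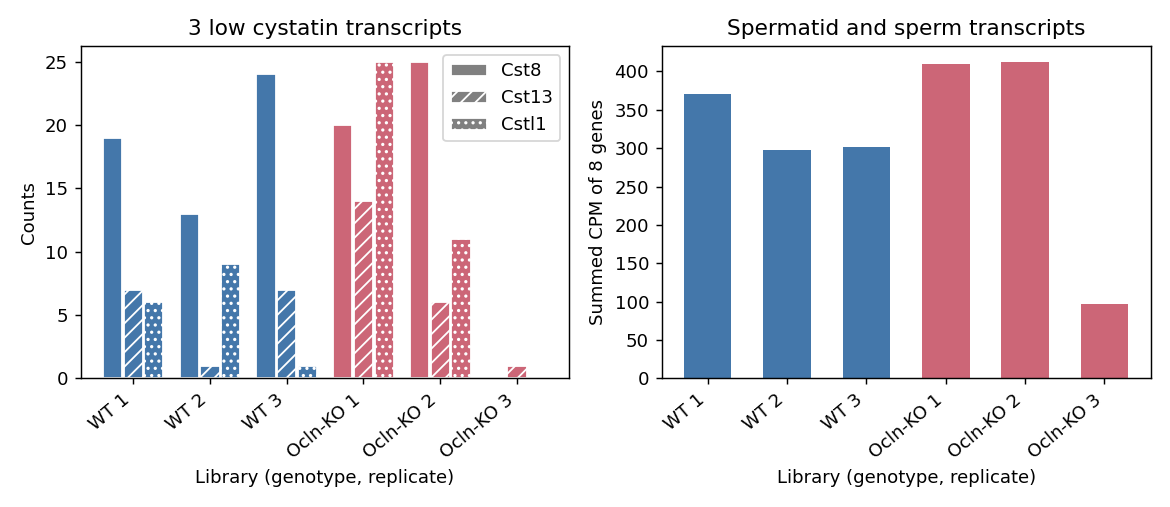
Left, counts (y axis) of Cst8, Cst13 and Cstl1 in each library (plain, hatched and dotted bars). Right, summed CPM (y axis) of 8 spermatid and sperm genes in the same libraries, with WT in blue and Ocln-KO in red. Ocln-KO replicate 3 has 0, 1 and 0 counts of the 3 cystatin genes and a sum of 96.7 CPM, against 297 to 413 CPM in the other libraries.

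The remaining members of the CRES subgroup were close to or at 0. Cst11 had 0, 0 and 1 counts in WT and 0, 5 and 4 counts in Ocln-KO. Cst12 had 0 counts in all 6 libraries, as did Cst9, whose product testatin is known from the developing testis. A count of 0 allows between 0.0802 and 0.0942 CPM, depending on the library. Cst11 and Cst12 are known epididymal transcripts, so these zeros do not show that the genes were silent in this tissue: the segment markers Lcn9 and Adam28 were also listed at 0 to 5 counts, and the cause was not tested. Cst6 encodes cystatin M/E, an inhibitor of legumain and cathepsin L best known from the epidermis. It had 0, 1 and 4 counts in WT and 2, 3 and 6 counts in Ocln-KO, and the genotypes overlapped. When the count filter was lifted, the log2 fold changes of Cst11, Cst6 and Cst13 were 2.90, 1.22 and 0.67, with adjusted p-values of 0.404, 0.625 and 0.750 (edgeR). These fitted values rest on a handful of counts each, and are no measure of the size of a difference.

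Along the cluster, Cst3 at one end stood far above its neighbours: the highest value of any other gene there was 1.08 CPM per kb, for Cstl1 in Ocln-KO replicate 1, against at least 131 CPM per kb for Cst3. The nearest gene in the direction of Cst9 was Cstdc2 (a cystatin domain gene, listed under an older symbol), with at most 10 counts in a library. The next was Cst9 with none. Cst8 is known from the proximal caput, and Cst11 and Cst12 are known epididymal transcripts. Their low counts therefore do not show low expression in this tissue, and the cause was not tested. Of the 5 cluster members with a promoter entry in RefSeq (GRCm38.p6; windows of 300 bases around the start site), Cst3 also had the most GC-rich one, at 60.3% with 13 CpG dinucleotides. Cst12, Cst8, Cst13 and Cst9 had 52.7%, 51%, 47.3% and 46% GC with 3, 1, 0 and 3 CpG. Most of the Cst3 window (chr2:148875463-148875762) lies inside the gene as annotated in GENCODE, which starts at 148875692. Most of each other window lies upstream of the GENCODE start. The values of Cst3, motifs included, are therefore not fully like for like with those of its neighbours. The median over all 32851 promoters was 52.7% GC and 7 CpG. The TATA motif TATAAA, searched on both strands, was found only in the window of Cst13, and is present in 13.6% of all promoters. The letters AGAACA, an androgen receptor half-site, likewise searched on both strands and without overlap with TATAAA, were found only in the window of Cst3, and occur in 19% of all promoters. These are descriptions of sequence, and no binding was measured.

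**Figure D4:**
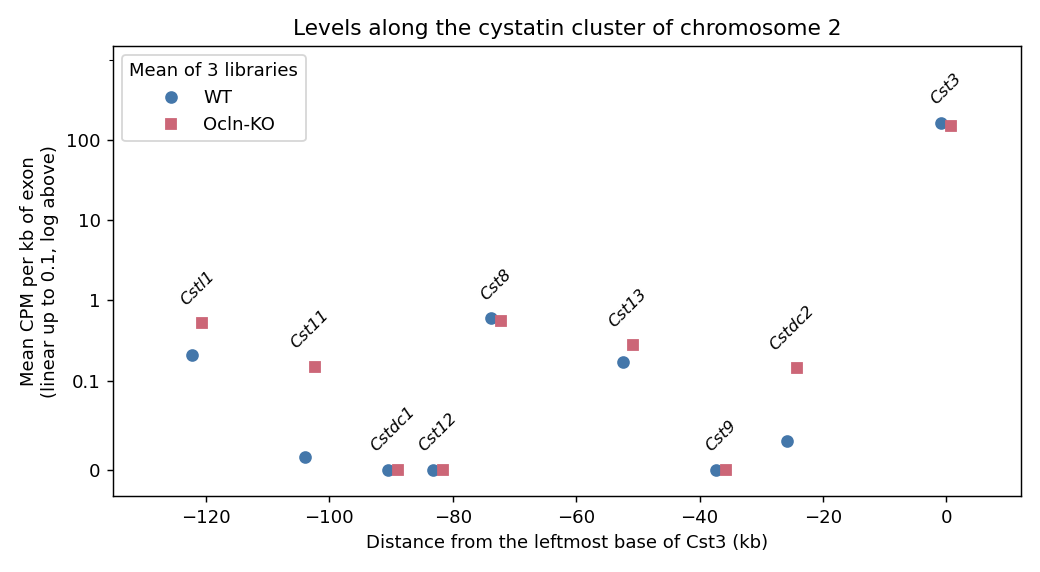
Mean level (y axis, CPM per kb of exon, linear up to 0.1 and logarithmic above) of the cystatin genes on chromosome 2 against their distance from Cst3 in kb (x axis), with WT as blue circles and Ocln-KO as red squares, means of 3 libraries each. Cst3 stands at 166 and 150 CPM per kb, and every other gene of the cluster is below 1 CPM per kb in both genotypes.

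Other cystatin genes added little to the total. A list of 23 further symbols, covering the stefin A genes, Cst7, Cst10, Cstl1 and the cystatin domain genes, matched 17 distinct genes of the table, of which 0 passed the filter on low counts and 11 had no count in any library. Their summed level lay at 0.267 to 0.350 CPM among WT libraries and at 0.534 to 0.779 CPM among the knockouts, against 183 to 237 CPM for the 8 cystatins. The genotypes did not overlap in that sum, as in 36.3% of all genes tested. The sum was not tested, rests on few counts, and its largest contribution differed between libraries. In Ocln-KO replicate 1 it was wholly the 25 counts of Cstl1, which had 0 counts in Ocln-KO replicate 3. Cst7, which encodes cystatin F of the endosomes of leukocytes, had 3, 0 and 8 counts in WT and 0, 1 and 7 counts in Ocln-KO. Cstdc2 had 1, 2 and 0 counts in WT and 0, 3 and 10 counts in Ocln-KO. Some stefin A genes share sequence with each other: 311 of the 710 stretches of 31 bases in Stfa1 recur in other cystatin genes, against 92 of 2782 in Csta1 and 0 of 382 in Stfa3. The count of 0 for Stfa1 is therefore uncertain if reads with several alignments were dropped.

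The type 3 members of the superfamily are large plasma glycoproteins with several cystatin domains, the kininogens, fetuins and histidine-rich glycoprotein. Of 5 such genes only Fetub and Kng2 could be tested, and neither passed the FDR threshold. Fetub encodes fetuin-B, an inhibitor of the egg protease ovastacin. The WT libraries read 9.30, 7.44 and 6.49 CPM and the knockouts 3.83, 5.34 and 3.05 CPM, and no knockout library reached the WT range. The log2 fold change was -0.93 ± 0.26 (SE; adjusted p = 0.0628, edgeR), short of the threshold. DESeq2, with an adjusted p of 0.0102, put it past the threshold, which it passed in only 2 of 14 alternative settings. For Kng2, a kininogen gene, WT libraries read 0.187, 0.557 and 0.565 CPM and the knockouts 0.623, 1.32 and 1.04 CPM, with a log2 fold change of 1.18 ± 0.54 (SE; adjusted p = 0.194). It shares 860 of its 2813 stretches of 31 bases with Kng1, which had at most 6 counts in a library. Ahsg and Hrg were at 0 to 2 counts.

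The enzymes that cystatins block were measured far better than most cystatins. All 11 genes of the list of cysteine cathepsins and legumain were tested. Of these, 2 rose in Ocln-KO, 0 fell and 9 did not pass, which compares with 8.95% called among all genes in either direction. Their median log2 fold change was 0.11, and in 4 of the 11 the genotypes did not overlap, against 36.3% of all genes. The list is short and was made with earlier results of these data known, so it is described here and was not tested as a list.

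Ctss encodes cathepsin S, which trims the invariant chain in antigen-presenting cells and is among the enzymes that cystatin C binds most tightly. It rose from 22.3, 19.4 and 23.1 CPM in WT to 32.1, 57.3 and 68.5 CPM in the knockouts. Every knockout library was above every WT library, and the knockouts spread far more widely. The log2 fold change was 1.28 ± 0.25 (SE; adjusted p = 0.0280, edgeR), or 2.43 times the WT level with a 95% interval of 1.63 to 3.64. Without Ocln-KO replicate 3 it was 1.05 (adjusted p = 0.0263). The summed level of 6 macrophage markers, Ptprc, Csf1r, Adgre1, Cd68, Itgam and Lyz2, was 122 to 150 CPM among WT libraries. In Ocln-KO replicates 1, 2 and 3 it was 167, 195 and 338 CPM, which puts the knockout libraries in the order they had for Ctss. Lyz2, a large part of that sum, had another order, at 74.3, 67.1 and 163 CPM. The order was not particular to macrophage markers. The sum of 6 lymphocyte markers was 3.55, 4.43 and 7.72 CPM in the same libraries, and that of 5 neutrophil markers 1.93, 2.48 and 4.59 CPM. Nearly all of the neutrophil sum was Csf3r alone, at 1.90, 2.48 and 4.50 CPM. S100a8, S100a9, Ly6g and Mpo had at most 1 count in any Ocln-KO library, so the sum is no measure of neutrophils. Of the 6 macrophage markers, 1 passed the test, against 8.95% of all genes called in either direction. It was Ptprc, the pan-leukocyte gene for CD45, higher in Ocln-KO with a log2 fold change of 1.54. The part of macrophages or other leukocytes in the rise of Ctss was not tested.

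Lgmn encodes legumain, an asparaginyl endopeptidase that cystatins C and M/E inhibit through a site other than the one used for cathepsins. It rose from 126, 142 and 118 CPM in WT to 244, 227 and 183 CPM in the knockouts, again without overlap. The log2 fold change was 0.76 ± 0.13 (SE; adjusted p = 0.0213, edgeR), or 1.69 times the WT level with an interval of 1.38 to 2.08. Its highest library was Ocln-KO replicate 1 and its lowest knockout was replicate 3, the reverse of the order seen for Ctss and for the macrophage sum. The sum of 5 basal cell markers was 258 to 263 CPM in WT libraries. In Ocln-KO replicates 1 to 3 it was 348, 287 and 317 CPM. Of these markers, 1 rose and 0 fell, against 3.91% and 5.04% of all genes called as higher and lower. The gene that rose was Krt14, a basal keratin gene. It had the library order of Lgmn among the knockouts, at 47.1, 42.8 and 37.8 CPM. Cldn1, for claudin-1, had the same order, at 106, 76.6 and 66.3 CPM, and did not pass the test. Krt5, Trp63 and Itga6 had other orders. The basal list was not raised throughout: 4 of its 5 genes had a positive log2 fold change, and that of Itga6 was -0.21. The highest Ocln-KO library of Itga6, at 71.3 CPM, lay below its lowest WT library, at 74.1 CPM, although it did not pass the test. The part of basal cells in the rise of Lgmn was not tested. Without Ocln-KO replicate 3 the log2 fold change was 0.87 (adjusted p = 0.00353). Both calls were lost when any single WT library or Ocln-KO replicate 2 was left out: the adjusted p then lay between 0.0712 and 0.112 for Ctss and between 0.0543 and 0.0999 for Lgmn. The fold changes moved little, with 1.05 to 1.54 for Ctss and 0.68 to 0.87 for Lgmn over 14 alternative settings on the log2 scale.

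The 3 proteases with the most CPM, a scale that favours long genes, did not pass the test. Per length, Lgmn stood at 55.4 CPM per kb in WT, beside 57.4 for Ctsb, 53.0 for Ctsh and 36.6 for Ctsl. The WT libraries of Lgmn, Ctsb and Ctsh overlapped, and the order of these genes in WT is not resolved. In Ocln-KO, Lgmn stood first at 93.9 CPM per kb, beside 58.4 for Ctsb. Ctsb, the gene of the lysosomal cathepsin B, averaged 348 ± 16.8 CPM in WT libraries and 353 ± 44.6 CPM in the knockouts (SD, n = 3; log2 fold change 0.02, adjusted p = 0.913, edgeR). Ctsl, for the endopeptidase cathepsin L, had 237 ± 15.2 and 255 ± 43.5 CPM (log2 fold change 0.11, adjusted p = 0.638). Ctsh, for the aminopeptidase cathepsin H, averaged 238 ± 18.0 CPM in WT libraries and read 251, 244 and 133 CPM in the 3 knockouts, so its lower knockout mean of 209 CPM came from replicate 3 alone. Ctsb and Ctsl share 782 of 6012 and 1835 of 6513 stretches of 31 bases with other annotated genes, so part of their reads may have been assigned elsewhere or dropped. Ctso was lower without overlap, at 85.2, 75.6 and 75.8 CPM against 61.9, 58.8 and 41.0 CPM, but missed the threshold (log2 fold change -0.55, adjusted p = 0.0654, edgeR). As for Fetub, it passed with DESeq2 (adjusted p = 0.0182), and with the count filter lifted both passed, at 0.0358 for Ctso and 0.0479 for Fetub (edgeR). In the other 12 of 14 alternative settings neither passed, with adjusted p up to 0.196 for Ctso and 0.203 for Fetub. Without Ocln-KO replicate 3 the values were 0.0503 and 0.0905 (edgeR).

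**Figure D5:**
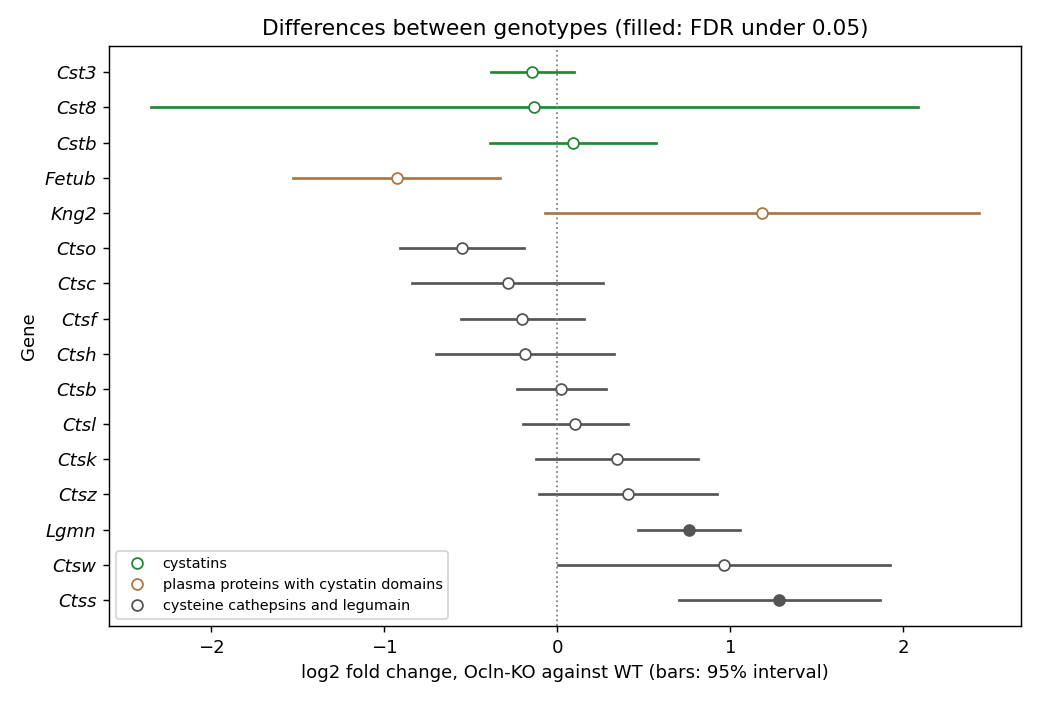
log2 fold change of Ocln-KO against WT (x axis, points) with its 95% interval (bars) for the tested cystatins, type 3 plasma proteins and target proteases (y axis); filled points passed an FDR of 0.05 in the edgeR test. The intervals of Cst3, Cst8 and Cstb include 0, that of Cst8 is the widest, and Ctss and Lgmn are the only filled points.

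Set beside each other, the inhibitors can be compared with their enzymes only through the intervals of each. For 9 of the 11 enzymes, those that did not pass, the interval overlapped that of Cst3, as for Ctsb with 0.851 to 1.21 and Ctsl with 0.872 to 1.33 times the WT level. The other 2 were the enzymes called. The intervals of the inhibitors Cst3 and Cstb ended at 1.07 and 1.49 times the WT level. Those of Ctss and Lgmn began at 1.63 and 1.38 times. The interval of Cst3 thus lay wholly below those of both enzymes, whereas that of Cstb overlapped the interval of Lgmn. That of Cst8, at 0.196 to 4.24 times, overlapped both. Ctss and Lgmn stand here because they were called, so that their intervals leave out an unchanged level follows from that choice. The difference between an inhibitor's change and an enzyme's was not tested as such, and transcripts do not measure protease activity.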

How the data were processed

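Total RNA was depleted of rRNA, made into directional libraries and sequenced as paired ends in 1 lane. The authors aligned reads to GRCm38 with HISAT2 (2.0.4 in the submitters' processing notes) and assigned them to genes with HTSeq; the deposited values are these counts, whole numbers that were not normalized. The counting mode, the strand setting and the treatment of multiply aligned reads are not given in the sources used here. All 6 columns were matched to samples by name, and 0 columns were unused.

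The tests ran in edgeR 4.0.16 under R 4.3.3: filterByExpr kept 19691 of 32046 genes with a count, TMM factors gave effective sizes of 31860861 to 37410050, and WT and Ocln-KO were compared with glmQLFit and glmQLFTest, without pairing, and p-values were adjusted over all of them by Benjamini-Hochberg. A gene was called at an FDR under 0.05. With a fold change over 2 or under 0.5 as well, as in the study's methods, 628 genes were called (3.19%), among them Ctss and Ocln but no cystatin. SE was derived from the fold change and its F statistic, intervals are 95%, and 3 counts were taken as the limit behind a 0. With 3 libraries against 3, no exact permutation test can give a two-sided p under 0.1. Exon lengths, coding sequences and shared 31-base stretches come from GENCODE vM21, aligned with mafft 7.526, and promoters from RefSeq.

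The members and lists were chosen with earlier results of these data known. Named genes are the 8 cystatins, Ocln, of each further list the called genes and the 3 most abundant by CPM, and the 3 genes with the profile nearest to each tested cystatin of at least 1 CPM; marker genes stand beside the results they move with; Ctso, Csta1, Stfa3, Ahsg, Hrg, Stfa1, Lcn9, Rnase10, Adam28 and Acr were picked with their values in view. Alternatives were DESeq2 1.42.0, limma-voom (limma 3.58.1), scaling by RLE factors, by total counts or with the 20 most abundant genes left out of the factors, a filter of none or of 10 counts in each library, the replicate number as a block, and each library omitted in turn. The fits were tested on simulated data.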

Additional observations from a re-analysis of the deposited data

How the results depend on the processing

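Across the alternatives no cystatin was called in either direction. Cst3 kept its sign in all 14, at -0.21 to -0.05. With 1 library left out, the sign turned for genes that were not called: Cst8 (-0.72 to 0.45; positive without WT replicate 3 or Ocln-KO replicate 3), Cstb (-0.053 to 0.29; negative without WT replicate 3 or Ocln-KO replicate 2), Ctsb (-0.086 to 0.090; negative without WT replicate 2 or Ocln-KO replicate 3), and Ctsh (-0.33 to 0.054) and Ctsl (-0.037 to 0.21), both in the fit that omits Ocln-KO replicate 3. Cst8 reached -1.44 with limma-voom and could not be fitted with at least 10 counts in every library. Counts of genes called moved most: 1762 of all genes as reported, 3165 with DESeq2, and 23 to 1692 with 1 library left out (23, 230 and 56 without WT replicates 1, 2 and 3, and 562 without Ocln-KO replicate 2), where fewer samples enter the fit. Of the 11 proteases, 2 were called as reported, 3 with DESeq2 and 3 with no count filter (Ctso in addition), and 0 to 2 with 1 library left out. The study's methods mention 3 pairs of mice, but the labels do not say which libraries form a pair. Replicate numbers are shared by the genotypes, but same-numbered libraries did not deviate together (r of -0.05, -0.03 and -0.003), so they were not treated as pairs. A block by replicate number stands for the pairs only if the numbers follow them. With a replicate block 41 genes, 0 proteases and 0 cystatins were called. Scaling by total counts shifted the median of all genes to 0.09 and the share of calls that were higher from 43.7% to 63.5%. Under that scaling Cst3 was at -0.06 and Cstb at 0.17, neither called. Low counts kept 5 cystatins from being tested, and the spread among the knockout libraries (20, 25 and 0 counts) widens the interval of Cst8.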
